A study of Mus musculus with 23 samples.

Results

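A set of 41 lysosome and autophagy genes was followed through hippocampal RNA-seq of tau transgenic and wild-type mice. The set holds lysosomal membrane proteins, acid hydrolases and their cofactors, subunits of the lysosomal proton pump, the regulator Tfeb and the machinery of autophagy. They were listed by gene symbol, and all 41 matched an Ensembl identifier among the 52636 genes of the count files. Of these, 40 were among the 17788 genes that passed a filter on low counts and were tested. Map1lc3b was the one that could not be tested. The 23 libraries came from P301S mice in hypoxia (6 libraries), P301S mice in normoxia (5), WT mice in hypoxia (6) and WT mice in normoxia (6). P301S denotes a transgene for human tau with a mutation found in familial frontotemporal dementia, and WT mice lacked it. The hypoxia was chronic and intermittent according to the series title, and normoxia is ordinary air. All groups shared a mixed C57Bl6 and Balbc background, and RNA was taken from the whole hippocampus. The promoter of the transgene, the hypoxia regimen, and the age and sex of the mice were not stated in the labels. Since the labels leave it unsaid whether every library is a separate animal, the p-values reflect how far libraries of a group spread.

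Lysosomes are the acidic organelles in which cells break down proteins, lipids and glycans. Their interior is acidified by the vacuolar ATPase, a rotary proton pump with a membrane sector, V0, and a cytosolic sector, V1. Autophagy brings cytoplasm, organelles and protein aggregates to the lysosome in double-membraned autophagosomes, which are made with the Atg8 proteins (the LC3 and GABARAP families) and loaded by receptors such as p62. Tau is one of the proteins cleared by these routes, and in the brain both neurons and microglia depend on them. Many lysosomal and autophagy genes carry the E-box sequence CACGTG near their start, where the transcription factor TFEB can bind.

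The promoters were read first, for this sequence. Since many genes of this kind are already known to carry it, its share among the members is a description and not a test of the set. RefSeq start-site windows of 300 bases, from 250 bases before to 50 bases after the start (GRCm38.p6), were found for 35 of the 41 genes. The 6-base palindrome CACGTG stood in a window of 14 of these 35 genes (40%), against 8.09% of the 27025 genes with a window. Those 27025 include genes that were not tested here. The 8-base TCACGTGA, which contains it, stood in 7 members (20%), against 1.12% of all genes. Both motifs are palindromes, so each match lies on both strands, and a match to the longer one is also a match to the shorter. A match describes the letters alone and does not show binding.

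The stretches below run from 120 bases before the RefSeq start to 20 bases after it, 5′ to 3′ on the gene's own strand. They are shown for 4 genes described further on with the motif close to the start, and for Gabarap, the member with the lowest p between the genotypes, whose window held none. Capitals mark TCACGTGA, or CACGTG in Lamp1.
Ctsa (chr2:164833653-164833792, plus strand): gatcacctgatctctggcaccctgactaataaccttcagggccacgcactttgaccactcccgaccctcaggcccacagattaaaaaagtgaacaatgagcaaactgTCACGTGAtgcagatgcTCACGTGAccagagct
Ctsd (chr7:142387808-142387947, minus strand): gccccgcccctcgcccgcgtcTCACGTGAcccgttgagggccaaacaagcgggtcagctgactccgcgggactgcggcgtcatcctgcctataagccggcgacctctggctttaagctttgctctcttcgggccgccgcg
Atp6v0d1 (chr8:105566045-105566184, minus strand): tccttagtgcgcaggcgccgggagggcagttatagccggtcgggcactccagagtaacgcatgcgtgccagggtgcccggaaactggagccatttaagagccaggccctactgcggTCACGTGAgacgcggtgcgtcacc
Lamp1 (chr8:13159041-13159180, plus strand): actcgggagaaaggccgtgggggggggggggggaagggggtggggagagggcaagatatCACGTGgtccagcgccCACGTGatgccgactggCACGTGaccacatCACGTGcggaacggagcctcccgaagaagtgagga
Gabarap (chr11:69991250-69991389, plus strand): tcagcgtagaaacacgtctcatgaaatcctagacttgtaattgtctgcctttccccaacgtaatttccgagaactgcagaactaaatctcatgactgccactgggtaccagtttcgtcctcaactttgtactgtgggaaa
Lamp1 carried 4 copies of CACGTG within 58 bases of its start, the most of any member. Ctsa carried 2 copies of TCACGTGA at the second of its 2 listed starts and none at the first. In Atp6v0d1 the motif was centred on the start itself, and in Ctsd it lay 95 bases upstream, with a further CACGTG 242 bases upstream outside the stretch printed.

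Libraries held 19.1 to 25.8 M counts of read pairs, and all values are given as CPM, the count of a gene per 1 M counts of its library, scaled for library composition. Lamr1-ps1 received 35 to 98 counts in each of the 11 P301S libraries and 0 in each of the 12 WT libraries. This pseudogene was chosen after its values were seen, so it is no independent check of the genotype labels. Hippocampal neuron, astrocyte and oligodendrocyte markers were abundant in all libraries, and the lowest sum of any of these lists in a library was 2959.6 CPM (oligodendrocytes). Gfap, the microglial marker P2ry12 and the choroid plexus marker Kcnj13 had 0 counts in all 23 libraries and lie wholly under other annotated genes. Choroid plexus markers varied most, with a sum of 69.2 to 3779 CPM, and 6 libraries stood apart at the low end. These were P301S hypoxia replicates 1 and 4, WT hypoxia replicates 1, 4 and 5, and WT normoxia replicate 4. Calls that were lost when these 6 were left out are named with the gene.

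Levels between genes were set side by side as CPM per kb of exon that no other gene overlaps. Counting took in introns, so intronic reads raise these values by an amount that was not measured, and the order is approximate. Psap, the precursor of the saposins that help lipid hydrolases, was the most abundant member at 510.3 CPM per kb, averaged over all libraries. Gabarapl1, an Atg8 protein, followed at 259, and the autophagy receptor gene Sqstm1 stood at 129. Tfeb was the least abundant at 1.92, below Cln3 and the lysosomal enzymes Gusb and Gla. Within the Atg8 family the order was Gabarapl1, then Map1lc3a at 60.8, then Gabarap at 49.0. Among the proteases Ctsb and Ctsd led at 84.9 and 57.9. Map1lc3b, which encodes LC3B, had 0 counts in all 23 libraries. It lies wholly inside the readthrough gene Gm20388, which had 3367 to 4512 counts per library, and reads shared by overlapping genes were not counted, so no level or fold change can be given for it.

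**Figure D1:**
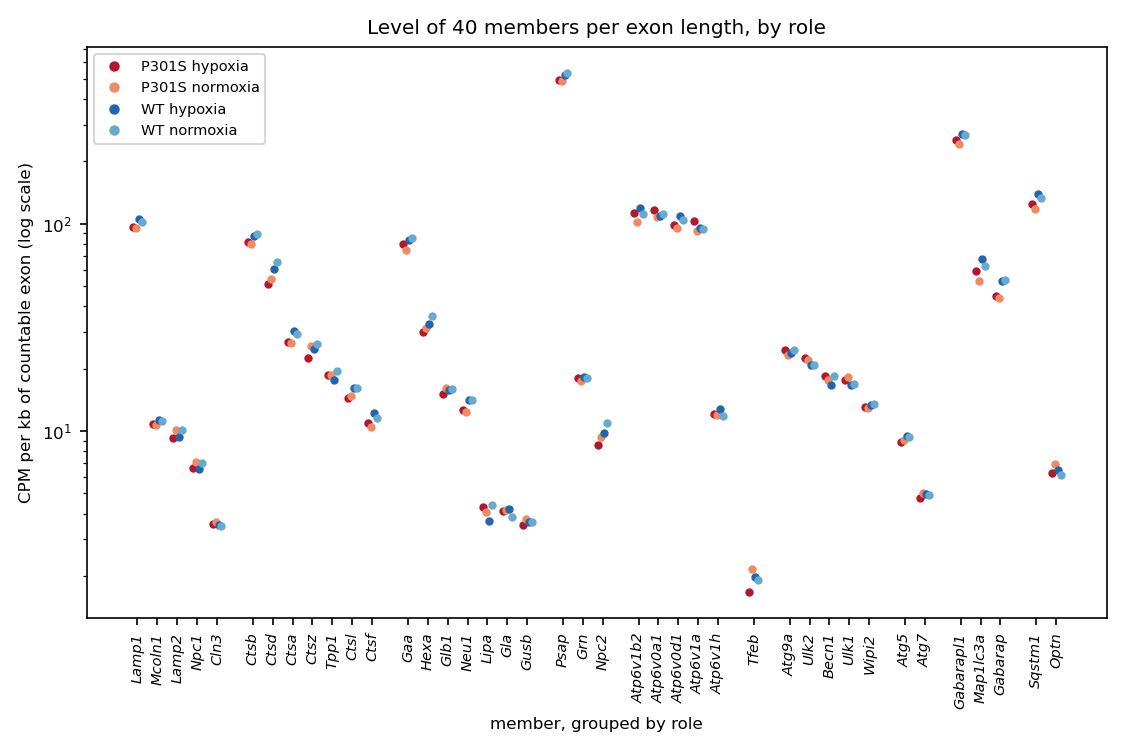
Mean level of the 40 measured members in CPM per kb of countable exon (log axis, intronic reads included in the counts), grouped by role, with 1 point for each of the 4 groups. Psap stands at the top near 510.3 and Tfeb at the bottom near 1.92, and the 4 groups lie close together for every member.

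Comparing P301S with WT over both conditions, 12 of the 40 tested members were lower in P301S and 1 was higher. The lower ones were Gabarap, Gabarapl1, Map1lc3a, Sqstm1, Hexa, Neu1, Ctsa, Ctsb, Ctsd, Ctsf, Lamp1 and Atp6v0d1, and the higher one was Ulk2. The log2 fold changes of the lower 12 ran from -0.27 to -0.12. Members were called at an adjusted p below 0.05 over all 17788 tested genes (edgeR quasi-likelihood test, Benjamini-Hochberg). By that rule 12.8% of all tested genes were called, 7.61% lower and 5.21% higher, while 30% of the members were called lower and 2.5% higher. The members were chosen with earlier results of these data known. They are also well expressed, with the lowest mean of a tested member at 10.9 CPM (Tfeb), while the tested genes include less abundant ones. With a minimum count of 50 in the filter, 16.4% of all tested genes were called. The median log2 fold change of the members was -0.058, against 0.008 over all tested genes, and 28 of the 40 were negative.

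Within each condition fewer members passed. In normoxia 3 members fell in P301S (Gabarap, Hexa and Sqstm1), where 5.93% of all tested genes were called and 3.59% were called lower. In hypoxia 1 member fell (Gabarap), where 1.93% of all tested genes were called and 1.37% were called lower. The 2 comparisons use separate libraries. Their fold changes had the same sign in 26 of 40 members (65.0%), close to the 63.1% of all tested genes, and both were negative in 22 members (55.0%), against 30.4% of all tested genes. Across the 40 members the 2 sets of fold changes were correlated at Pearson's r = 0.44 and Spearman's rho = 0.571, against 0.291 and 0.266 across all tested genes, as a description across genes, which are not independent. The normoxia count depends on single libraries, and the share of all tested genes called moved with it in most of these fits. It was 9 without P301S normoxia replicate 1 (10.4% of all tested genes called) and 7 without WT normoxia replicate 1 (11.3%). It was 1 without P301S normoxia replicate 2 (1.84%), 3 (3.03%) or 5 (3.07%) or WT normoxia replicate 3 (3.8%), and 5 without P301S hypoxia replicate 1 (5.74%). The hypoxia count was 4 without P301S hypoxia replicate 6 (3.44%), P301S normoxia replicate 1 (2.61%) or WT hypoxia replicate 3 (2.89%). It was 3 without WT normoxia replicate 1 (2.12%), 4 (2.33%) or 5 (1.92%), and 2 without P301S hypoxia replicate 1 (2.31%) or WT hypoxia replicate 4 (1.4%). Among the 12 members called lower, P301S normoxia replicate 1 was the highest library of its group in 10 and WT normoxia replicate 1 the lowest of its group in 7.

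**Figure D2:**
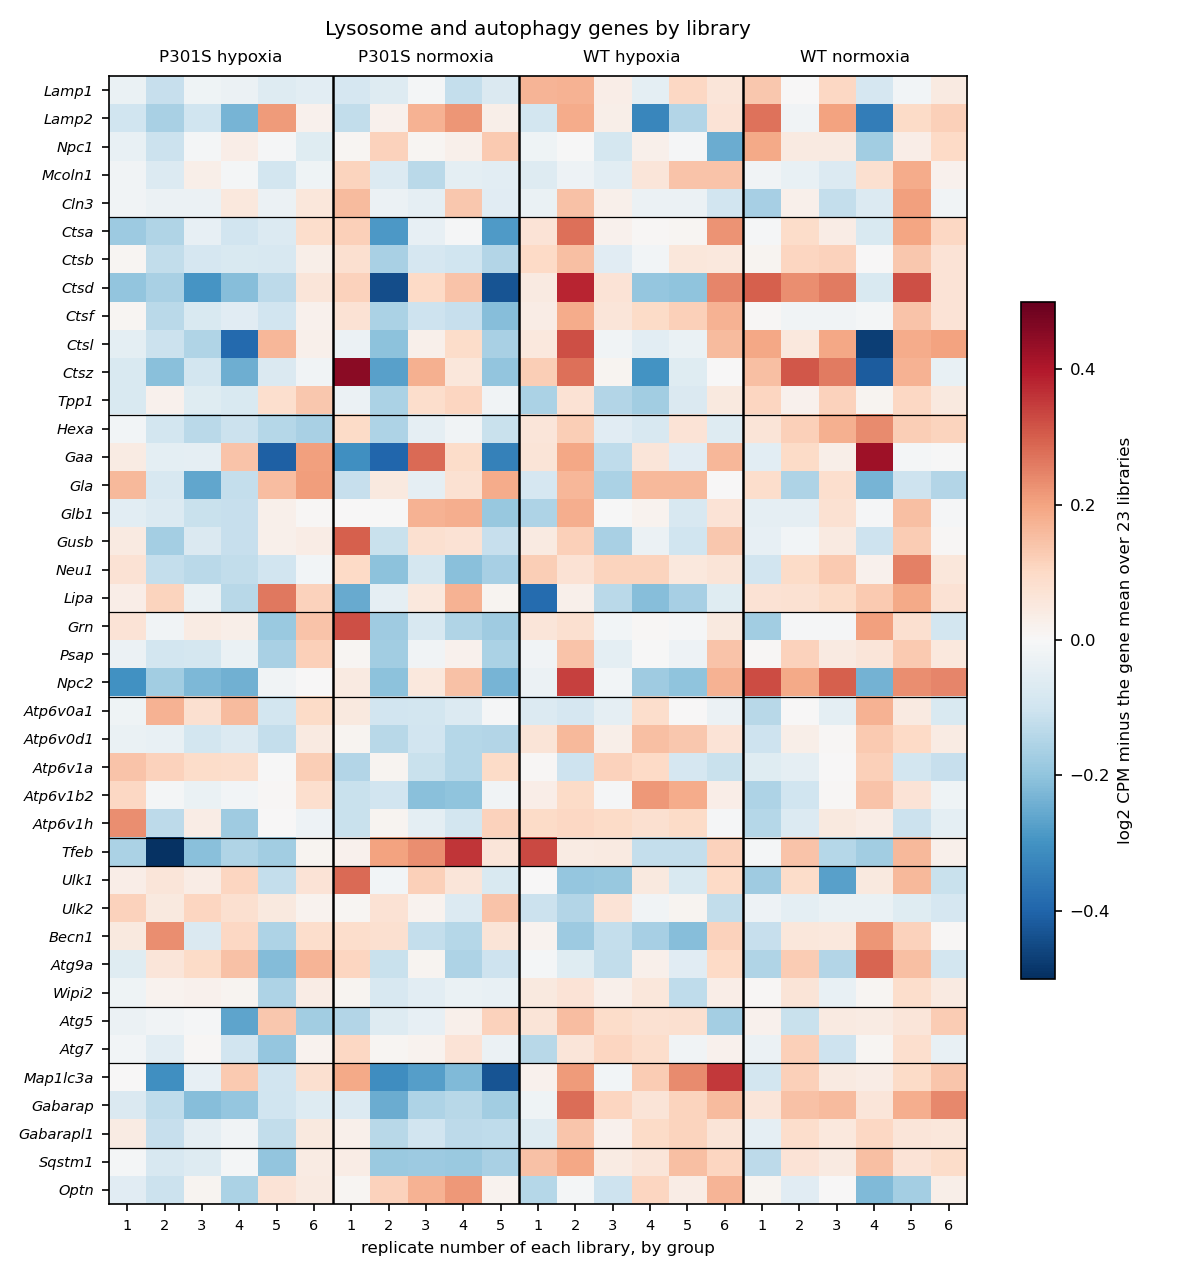
Log2 CPM of each of the 40 tested members in each library, relative to the gene's mean over the 23 libraries, with members grouped by role (horizontal lines) and libraries by group (vertical lines). The Gabarap and Sqstm1 rows are mostly blue in P301S and mostly red in WT, while rows such as Gaa, Ctsz and Lamp2 vary among libraries of the same group.

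All 3 measured Atg8 members were lower in P301S over both conditions, where 7.61% of all tested genes were called lower. Each spans less than 10 kb, and 17.6% of all tested genes of at most 10 kb were called lower. With the length and GC trend of the counts removed, Gabarap was still called (-0.21), and Map1lc3a and Gabarapl1 were not (-0.09 and -0.07). GABARAP is conjugated to lipid on the autophagosome membrane and acts late in its formation and fusion. Gabarap (ENSMUSG00000018567, chromosome 11, 69991143 to 69994951, GRCm38) measured 77.5 to 86.0 CPM with a median of 83.0 in P301S hypoxia, and 85.7, 75.5, 80.7, 81.6 and 79.7 CPM in the 5 P301S normoxia libraries. In WT it measured 88.5 to 109 CPM with a median of 96.9 in hypoxia, and 93.7 to 106 CPM with a median of 99.7 in normoxia. It was the only member whose 11 P301S libraries all lay below all 12 WT libraries. For all tested genes the share separated in this way, or without overlap between 2 groups, is not given here. Its log2 fold change was -0.27 ± 0.03 (SE) over both conditions (adjusted p = 3.83e-05), where ± after a log2 fold change gives its standard error throughout. It was -0.30 ± 0.05 in normoxia (adjusted p = 0.00236) and -0.25 ± 0.05 in hypoxia (adjusted p = 0.00794). Without the 6 choroid-poor libraries the hypoxia value was -0.31, with an adjusted p of 0.0617, and in all other settings tried Gabarap stayed past the threshold in all 3 comparisons.

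Gabarapl1, the closest relative of Gabarap and the most abundant Atg8 transcript here, was lower as well (ENSMUSG00000030161, chromosome 6, 129533160 to 129542346). It measured 343 to 386 CPM with a median of 365 in P301S hypoxia, and 379, 339, 349, 340.5 and 341 CPM in P301S normoxia. The WT values were 357 to 411 CPM with a median of 394 in hypoxia, and 362 to 401 CPM with a median of 388 in normoxia. All 11 P301S libraries lay below the median of the 12 WT libraries. The ranges overlapped in hypoxia, and in normoxia they did so through P301S replicate 1 and WT replicate 1 alone. The log2 fold change over both conditions was -0.12 ± 0.03 (adjusted p = 0.013). Of its exon length, 28.3% overlaps another gene.

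Map1lc3a, which encodes LC3A, was the third Atg8 gene that fell (ENSMUSG00000027602, chromosome 2, 155276297 to 155278073). It measured 57.6 to 77.9 CPM with a median of 70.2 in P301S hypoxia, and 81.1, 57.3, 58.8, 61.0 and 52.7 CPM in P301S normoxia. In WT hypoxia it ranged over 70.4 to 90.9 CPM with a median of 80.0, and in WT normoxia over 66.8 to 78.3 CPM with a median of 74.7. In normoxia 4 P301S libraries lay below every WT library and the fifth, replicate 1, above them all. Over both conditions its log2 fold change was -0.22 ± 0.06 (adjusted p = 0.0203). The adjusted p was 0.0508 without the 6 choroid-poor libraries. Gabarapl2, the remaining measured relative outside the set, was lower too at -0.18 ± 0.04 (adjusted p = 0.00243).

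Of the 2 autophagy receptors, Sqstm1 fell and Optn did not pass, where 7.61% of all tested genes were called lower over both conditions. Sqstm1 encodes p62, which binds ubiquitinated cargo and Atg8 proteins at once and is itself degraded by autophagy. Sqstm1 (ENSMUSG00000015837, chromosome 11, 50199366 to 50210827) measured 293 to 346 CPM with a median of 327 in P301S hypoxia, and 344, 295, 296, 295 and 300.3 CPM in P301S normoxia. WT libraries gave 346 to 384 CPM with a median of 367 in hypoxia, and 307 to 373 CPM with a median of 352 in normoxia. The hypoxia groups did not overlap, though the highest P301S library and the lowest WT library were close, and in normoxia P301S replicate 1 lay above WT replicate 1. P301S against WT gave a log2 fold change of -0.18 ± 0.04 over both conditions (adjusted p = 0.00274), -0.18 ± 0.05 in normoxia (adjusted p = 0.039) and -0.17 ± 0.05 in hypoxia (adjusted p = 0.0769). Optn, the receptor optineurin, had a log2 fold change of 0.06 ± 0.04 over both conditions (adjusted p = 0.375). The normoxia call of Sqstm1 was lost without any 1 of P301S normoxia replicates 2 to 5 or WT normoxia replicates 2 to 6, and without the 6 choroid-poor libraries (adjusted p = 0.14). Its log2 fold change ran from -0.24 to -0.17 with each library left out in turn.

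**Figure D3:**
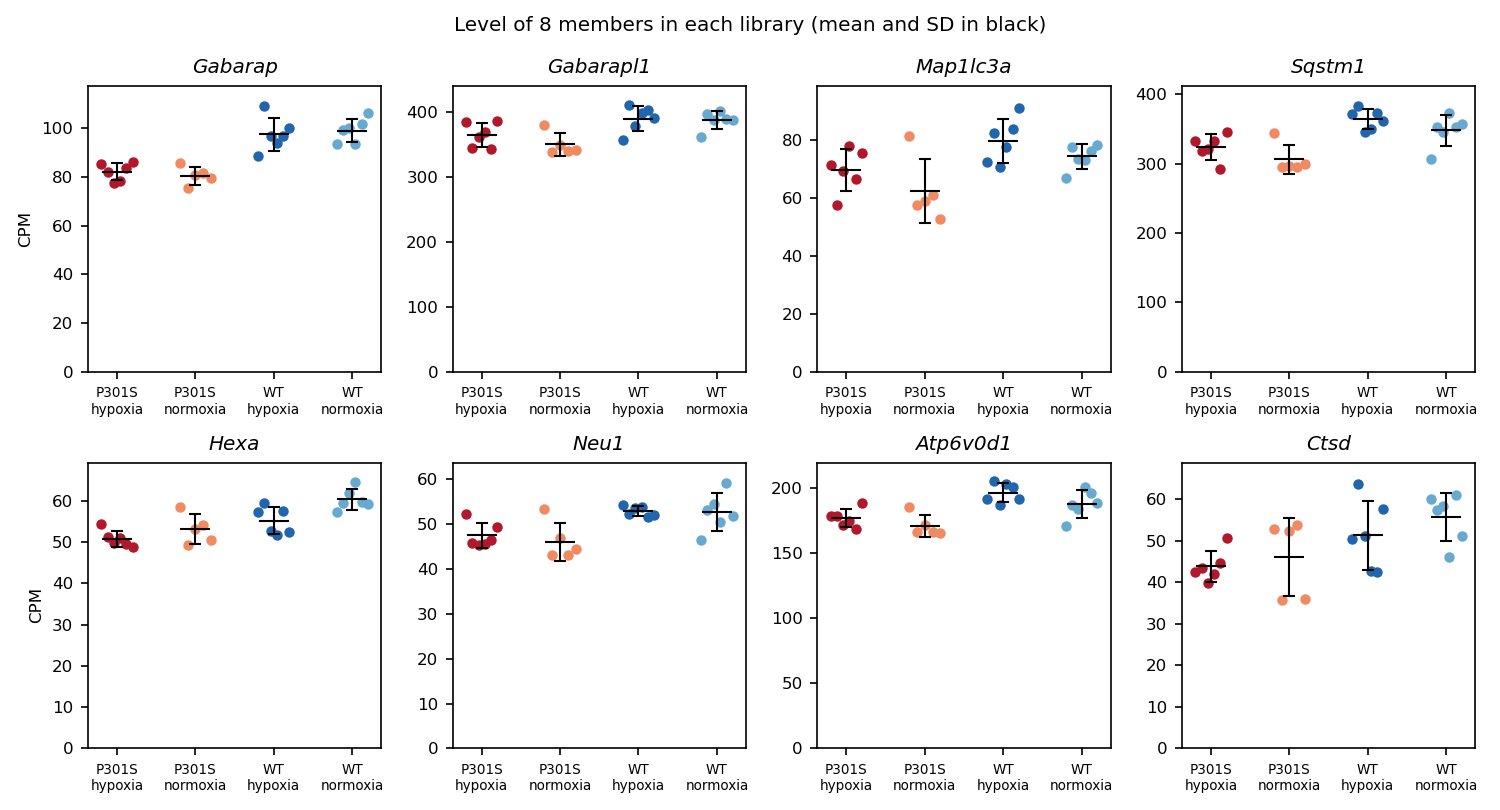
CPM in each library for 8 members called lower in P301S, by group, with the group mean and SD in black and axes starting at 0. All 11 Gabarap points of P301S lie below all 12 of WT, while in the other 7 panels the genotypes overlap and P301S normoxia replicate 1 (leftmost orange point) is mostly the highest of its group.

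Of the 7 lysosomal proteases 4 were lower in P301S over both conditions and 6 had a negative fold change, with a median of -0.14, against 7.61% called lower and a median of 0.008 over all tested genes. Cathepsin D, the main aspartic protease of lysosomes, varied widely. Ctsd (ENSMUSG00000007891, chromosome 7, 142375911 to 142388038) measured 39.8 to 50.8 CPM with a median of 43.0 in P301S hypoxia, and 52.9, 35.8, 52.3, 53.9 and 36.1 CPM in P301S normoxia. In WT it measured 42.4 to 63.6 CPM with a median of 50.8 in hypoxia, and 46.2 to 61.1 CPM with a median of 57.9 in normoxia. WT normoxia replicate 4, which is choroid-poor, measured 46.2 CPM, against 51.2 to 61.1 CPM in the other WT normoxia libraries. In WT hypoxia the choroid-poor replicates 1, 4 and 5 measured 50.4, 42.7 and 42.4 CPM, against 51.2 to 63.6 CPM in the others. In P301S hypoxia the choroid-poor replicates 1 and 4 measured 42.5 and 42.1 CPM, within the range of the others. The part of choroid plexus tissue in this spread is not stated here. All 11 P301S libraries were below the median of the 12 WT libraries, and the ranges overlapped in both conditions. Its log2 fold change was -0.25 ± 0.08 over both conditions (adjusted p = 0.0477), but the call was lost with 16 of the 23 libraries left out singly, with values of -0.29 to -0.21. It held without P301S hypoxia replicate 6, P301S normoxia replicate 1, 3 or 4, WT hypoxia replicate 4 or 5, or WT normoxia replicate 4. The call was also lost under 2 of 7 other settings. Of the exon length of Ctsd, 63.7% overlaps Gm49369, and reads shared with that gene were not counted.

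Cathepsin B, an abundant cysteine protease, was lower too. Ctsb (ENSMUSG00000021939, chromosome 14, 63122462 to 63145923) measured 410.3 to 457 CPM with a median of 424 in P301S hypoxia, and 472, 399, 422, 417 and 404 CPM in P301S normoxia. The WT values were 430.3 to 496 CPM with a median of 464 in hypoxia, and 447 to 491 CPM with a median of 475 in normoxia. Its log2 fold change was -0.13 ± 0.03 (adjusted p = 0.0127), and the adjusted p was 0.0508 without the 6 choroid-poor libraries. In both conditions the ranges overlapped, and the P301S medians were the lower ones.

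Cathepsin F, another cysteine protease, was also lower over both conditions. Ctsf (ENSMUSG00000083282, chromosome 19, 4855129 to 4860912) measured 51.8 to 57.6 CPM with a median of 54.2 in P301S hypoxia, against 58.3 to 64.6 CPM with a median of 61.3 in WT hypoxia. The values in P301S normoxia were 59.7, 50.9, 52.9, 52.5 and 49.0 CPM, against 56.2 to 62.7 CPM with a median of 56.7 in WT normoxia. The hypoxia groups did not overlap and the normoxia groups did, and the share of all tested genes without such overlap is not given here. The log2 fold change was -0.15 ± 0.03 over both conditions (adjusted p = 0.00525) and -0.17 ± 0.05 in hypoxia alone (adjusted p = 0.0574). The hypoxia comparison passed with 1 of 6 libraries left out (P301S hypoxia replicates 1 and 6, P301S normoxia replicate 1, WT hypoxia replicate 3, WT normoxia replicates 4 and 5).

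Cathepsin A, a carboxypeptidase that also shields neuraminidase 1 in a complex, was lower, as was Neu1. Ctsa (ENSMUSG00000017760, chromosome 2, 164832873 to 164841032) measured 71.7 to 86.4 CPM with a median of 76.8 in P301S hypoxia, and 88.2, 66.5, 79.0, 80.9 and 66.7 CPM in P301S normoxia. WT libraries measured 81.7 to 98.4 CPM with a median of 84.0 in hypoxia, and 77.0 to 93.2 CPM with a median of 85.0 in normoxia. P301S normoxia replicates 2 and 5 were the lowest of all libraries, and the ranges overlapped in both conditions. The log2 fold change was -0.17 ± 0.05 (adjusted p = 0.0309), and 39.0% of its exon length overlaps another gene. Its adjusted p was 0.0714, 0.0676 or 0.0598 without P301S normoxia replicate 2, P301S normoxia replicate 5 or WT hypoxia replicate 2. Ctsl, Ctsz and Tpp1 did not pass, with log2 fold changes of -0.14 ± 0.07, -0.08 ± 0.09 and 0.00 ± 0.04.

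Of the 7 lysosomal glycosidase and lipase genes 2 fell over both conditions, where 7.61% of all tested genes were called lower. Neu1, the sialidase held in that complex, was 1 of these 2 (ENSMUSG00000007038, chromosome 17, 34931253 to 34935953). It measured 45.3 to 52.3 CPM with a median of 46.2 in P301S hypoxia, and 53.3, 43.2, 46.9, 43.1 and 44.4 CPM in P301S normoxia. The WT libraries held 51.6 to 54.2 CPM with a median of 53.0 in hypoxia, and 46.6 to 59.3 CPM with a median of 52.5 in normoxia. In hypoxia 5 P301S libraries lay below all 6 of WT, and in normoxia the ranges overlapped through replicate 1 of each genotype. Its log2 fold change was -0.17 ± 0.04 over both conditions (adjusted p = 0.00739) and -0.19 ± 0.06 in normoxia (adjusted p = 0.056). It was called in normoxia without P301S hypoxia replicate 1, P301S normoxia replicate 1 or WT normoxia replicate 1, with log2 fold changes of -0.26 to -0.20.

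Hexa, which encodes the alpha subunit of the hexosaminidase that degrades GM2 ganglioside, was the other (ENSMUSG00000025232, chromosome 9, 59539540 to 59565109). It measured 48.9 to 54.3 CPM with a median of 50.4 in P301S hypoxia, and 58.5, 49.2, 53.1, 54.2 and 50.6 CPM in P301S normoxia. The WT libraries held 51.7 to 59.6 CPM with a median of 54.9 in hypoxia, and 57.3 to 64.6 CPM with a median of 59.6 in normoxia. WT normoxia was the highest group, and a single P301S library reached into it. Hexa had a log2 fold change of -0.15 ± 0.03 over both conditions (adjusted p = 0.00517) and -0.18 ± 0.05 in normoxia (adjusted p = 0.0293). The normoxia call was lost without P301S normoxia replicate 2, 3 or 5 or WT normoxia replicate 3 or 4, with adjusted p between 0.0565 and 0.105, and without the 6 choroid-poor libraries (adjusted p = 0.096). Gaa, Gla, Glb1, Gusb and the acid lipase Lipa, which cleave glycogen, globosides, galactosides, glucuronides and cholesteryl esters, did not pass, with log2 fold changes between -0.13 ± 0.08 in Gaa and 0.05 ± 0.05 in Lipa.

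Among the 5 membrane proteins, Lamp1 fell and the other 4 did not pass, where 7.61% of all tested genes were called lower over both conditions. LAMP1 is a heavily glycosylated protein that lines the lysosomal membrane. Lamp1 (ENSMUSG00000031447, chromosome 8, 13159161 to 13175338) measured 87.4 to 93.2 CPM with a median of 91.9 in P301S hypoxia, and 89.3, 90.5, 94.0, 87.1 and 90.2 CPM in P301S normoxia. In WT mice Lamp1 had 91.5 to 107 CPM with a median of 100.2 in hypoxia, and 89.4 to 104 CPM with a median of 96.2 in normoxia. All 11 P301S libraries lay below the median of the 12 WT libraries, and the ranges overlapped by a few CPM. The log2 fold change was -0.12 ± 0.03 (adjusted p = 0.0111), from the part of the gene that Grtp1 does not overlap, since 64.4% of its exon length is shared. Its relative Lamp2, the cholesterol exporter Npc1, the ion channel Mcoln1 and Cln3, the gene of juvenile Batten disease, had log2 fold changes of -0.01 ± 0.07, 0.02 ± 0.04, -0.07 ± 0.04 and 0.03 ± 0.04.

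None of the 3 soluble cofactors passed over both conditions, although all 3 fold changes were negative. Npc2, which hands cholesterol to NPC1 inside the lysosome, had -0.20 ± 0.07 (adjusted p = 0.0616), and all 11 P301S libraries lay below 59.1 CPM, the median of the 12 WT libraries. Psap had -0.10 ± 0.04 (adjusted p = 0.0678). Grn, which encodes progranulin, had -0.03 ± 0.05 (adjusted p = 0.784). Npc2 measured 44.3 CPM in WT normoxia replicate 4, which is choroid-poor, against 59.4 to 65.4 CPM in the other WT normoxia libraries. In WT hypoxia the choroid-poor replicates 1, 4 and 5 measured 51.1, 46.1 and 45.4 CPM, against 51.6 to 66.1 CPM in the others. In P301S hypoxia the choroid-poor replicates 1 and 4 measured 42.3 and 44.1 CPM, against 44.6 to 52.2 CPM in the others. Its fold changes with a choroid plexus score in the model, or without the 6 choroid-poor libraries, are not given here. The part of choroid plexus tissue in its difference is therefore not stated.

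Of the 5 proton pump members, Atp6v0d1 fell, and Atp6v0a1, Atp6v1a, Atp6v1b2 and Atp6v1h did not pass. Over all tested genes 7.61% were called lower. Atp6v0d1 encodes subunit d of the membrane sector, which links V0 to the central stalk. Atp6v0d1 (ENSMUSG00000013160, chromosome 8, 105524465 to 105566047) measured 169 to 189 CPM with a median of 176 in P301S hypoxia, and 185, 166, 171, 166 and 165 CPM in P301S normoxia. In WT it measured 187 to 205 CPM with a median of 196 in hypoxia, and 171 to 200.5 CPM with a median of 188 in normoxia. All 11 P301S libraries lay below the median of the 12 WT libraries. For Atp6v0d1 the log2 fold change was -0.14 ± 0.03 over both conditions (adjusted p = 0.00342), -0.14 ± 0.04 in normoxia (adjusted p = 0.0653) and -0.15 ± 0.04 in hypoxia (adjusted p = 0.0586). The hypoxia comparison passed without P301S hypoxia replicate 6, P301S normoxia replicate 1, WT hypoxia replicate 3 or WT normoxia replicate 1, 4 or 5. Without the 6 choroid-poor libraries the call over both conditions was lost (adjusted p = 0.0581). The catalytic subunit gene Atp6v1a had 0.04 ± 0.04 (adjusted p = 0.542) and its partner Atp6v1b2 -0.10 ± 0.04 (adjusted p = 0.0979). Atp6v0a1, the large membrane subunit, had 0.03 ± 0.04 and Atp6v1h, subunit H, -0.03 ± 0.04.

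Of 12 other pump genes that passed the filter, 5 fell in P301S over both conditions and none rose, where 7.61% of all tested genes were called lower. All 12 fold changes were negative, with a median of -0.084. Atp6v1e1, the peripheral stalk subunit E, had -0.18 ± 0.03 (adjusted p = 0.00068) and was also called in each condition, with Atp6ap1, Atp6v0b and Atp6v0e2 called beside it in normoxia. It averaged 209 ± 13.1 CPM in P301S hypoxia (SD, n = 6) and 199.5 ± 8.90 CPM in P301S normoxia (SD, n = 5), against 239 ± 6.42 CPM in WT hypoxia and 224 ± 8.43 CPM in WT normoxia (SD, n = 6 each). Subunit genes Atp6v0e2 and Atp6v0b had -0.17 ± 0.04 and -0.22 ± 0.05, and the accessory gene Atp6ap1 had -0.12 ± 0.03, with adjusted p between 0.00392 and 0.00524. Atp6v1f, the fifth, had -0.28 ± 0.06. With the length and GC trend removed 4 of the 12 were lower, Atp6v1e1 and Atp6v1f and also Atp6v1c1 and Atp6v1d. In that fit 5.95% of all tested genes were called in either direction. Atp6v0c, the proteolipid that forms most of the V0 rotor, had 0 counts in the 23 libraries, lies wholly under other genes and was not tested.

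Among the 5 initiation genes and the 2 conjugation genes 1 rose and none fell, where 5.21% of all tested genes were called higher and 7.61% lower. Ulk2, a kinase that starts autophagy, was the only member called higher (ENSMUSG00000004798, chromosome 11, 61775649 to 61855073). It measured 131 to 139.6 CPM with a median of 135 in P301S hypoxia, and 129.9, 136, 130.3, 123 and 142 CPM in P301S normoxia. WT mice showed 116 to 135 CPM with a median of 124 in hypoxia, and 122 to 126 CPM with a median of 125 in normoxia. The ranges overlapped, and the log2 fold change was 0.10 ± 0.03 (adjusted p = 0.0238). Its call was lost without P301S hypoxia replicate 1, 3 or 4, P301S normoxia replicate 2 or 5, or WT hypoxia replicate 6. It was also lost with no filter on low counts, without the 6 choroid-poor libraries, and with the length trend removed, where the value was 0.04. The related kinase Ulk1 had 0.10 ± 0.05 (adjusted p = 0.226), the lipid kinase partner Becn1 0.04 ± 0.05, the scramblase Atg9a -0.01 ± 0.05 and the phosphoinositide reader Wipi2 -0.05 ± 0.03. Atg5 and Atg7, which conjugate Atg8 proteins to lipid, had -0.08 ± 0.05 and -0.03 ± 0.04. Becn1 shares 85.3% and Atg9a 44.0% of exon length with other genes.

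**Figure D4:**
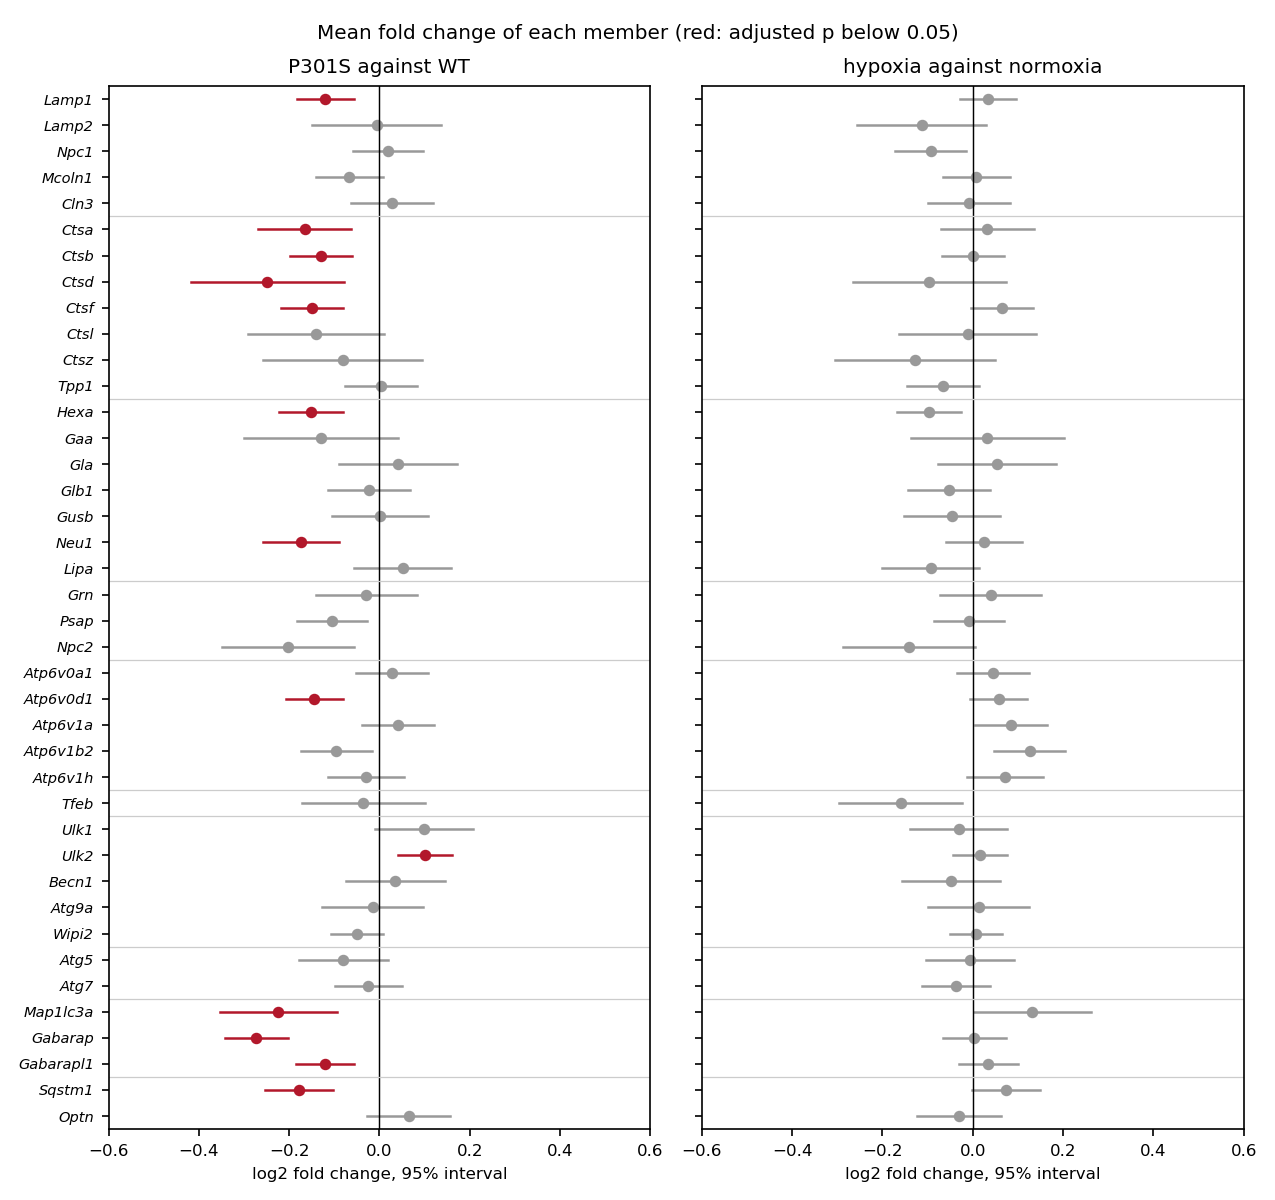
Log2 fold change with 95% interval of each tested member, for P301S against WT (left) and hypoxia against normoxia (right), each averaged over the other factor, in order of role. On the left 12 members lie to the left of 0 and 1 (Ulk2) to the right in red, and on the right none is red.

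The members called lower were mostly short genes. The 12 members called lower had a median gene body of 10.3 kb, against 25.4 kb for the other tested members. Of the 8 members of at most 10 kb, 6 were lower, against 17.6% of all tested genes of that length. Of the 18 members from 10 to 30 kb, 5 were lower, against 6.72% of all tested genes, and of the 14 longer members 1 was lower (Atp6v0d1), against 1.28%. Across all tested genes the genotype fold change was higher in longer genes (Spearman's rho = 0.407), and across the 40 members as well (rho = 0.488), as descriptions across genes. Gabarap spans 3.81 kb, Map1lc3a 1.78 kb and Neu1 4.70 kb, whereas Ulk2 spans 79.4 kb.

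When the trend of counts with gene length and GC content was removed within each library, 8 members were lower and 1 was higher over both conditions, where 5.95% of all tested genes were called. Gabarap, Sqstm1, Hexa, Atp6v0d1, Ctsb and Lamp1 were called in both fits. Ctsd was no longer called, at -0.20 against -0.25 before the correction. The other calls lost had folds smaller by over 1.5 times. They were Map1lc3a at -0.09 against -0.22, Neu1 at -0.08 against -0.17, Ctsa at -0.09 against -0.17 and Ctsf at -0.06 against -0.15. Gabarapl1 stood at -0.07 against -0.12 and Ulk2 at 0.04 against 0.10. Npc2 at -0.21, Atg5 at -0.16 and Ulk1 at 0.13 were called in their place. The median of the 40 members was -0.07 after this correction. In normoxia Gabarap and Ctsb were called, where 2.56% of all tested genes were, and in hypoxia Gabarap, where 0.759% were.

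**Figure D5:**
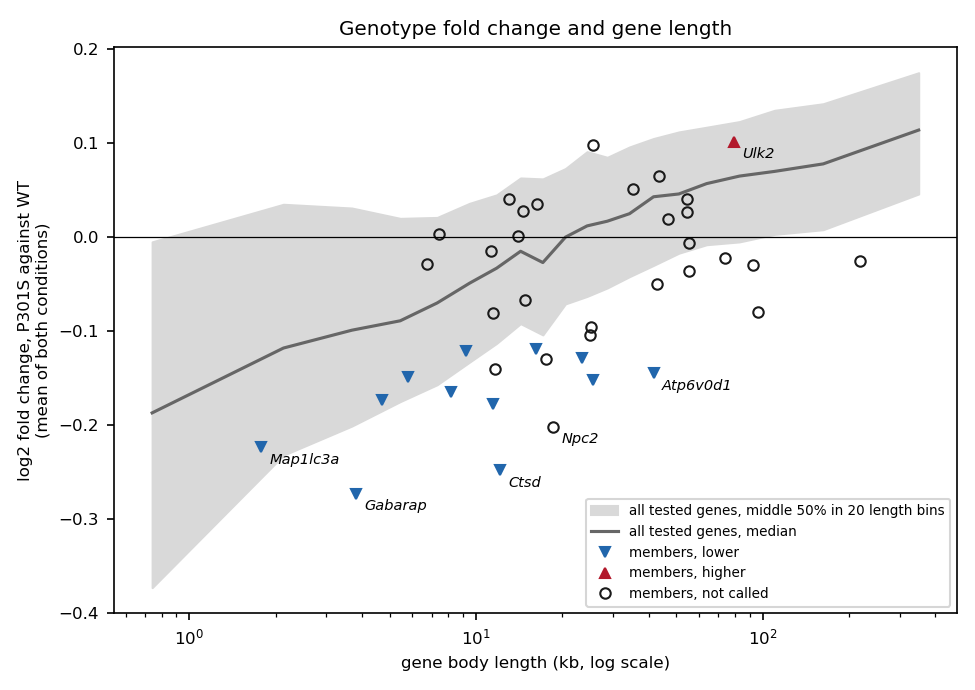
Log2 fold change of P301S against WT over both conditions plotted against gene body length in kb (log axis) for the 40 tested members. The grey line and band give the median and middle 50% of all tested genes in 20 length bins, and the members called lower (blue) lie mostly at 30 kb or less and under the line.

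Cell markers were read in the same libraries, because a change in RNA per cell and a change in the number of cells of a type cannot be told apart in whole tissue. Of the 10 homeostatic microglia markers that passed the filter none was called for genotype, and 6 were negative over both conditions. Their sum was 299 to 364 CPM with a median of 332 in P301S hypoxia and 282 to 440.2 CPM with a median of 314 in P301S normoxia. It was 319 to 386 CPM with a median of 337 in WT hypoxia and 332 to 384 CPM with a median of 346 in WT normoxia, so the ranges overlapped.

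Of the 8 interneuron markers, Npy and Sst were lower in P301S, with log2 fold changes of -0.33 and -0.32 over both conditions. In the whole list 5 markers were negative and 3 positive over both conditions, with a median of -0.138. The sum of the list was 717 to 998 CPM with a median of 814 in P301S hypoxia and 700.1 to 882 CPM with a median of 757 in P301S normoxia, against 789.5 to 951 CPM with a median of 846 in WT hypoxia and 722 to 847 CPM with a median of 789 in WT normoxia. All 14 tested choroid plexus markers were negative in normoxia and none was called. Their sum there was 605 to 3422 CPM with a median of 853 in P301S and 102 to 3779 CPM with a median of 3223 in WT. In hypoxia 11 of them were negative and 3 positive, and over both conditions all 14 were negative, with a median of -0.29. All 9 tested ependymal markers were negative in each condition and over both, with a median of -0.353 over both, and none was called. In the other marker lists 3 genes were called for genotype. Slc1a2 of astrocytes was higher over both conditions (0.15), while 5 of the 7 tested astrocyte markers were negative, with a list median of -0.062. Itm2a was lower (-0.28) among 8 endothelial markers with a median of -0.03. Cst7, a marker of disease-associated microglia, was higher in normoxia (1.34) at no more than 1.08 CPM in any library, and the 9 tested markers of that list were 5 positive and 4 negative there, with a median of 0.011. With the choroid score in the model, 14 members were called over both conditions, 4 in normoxia and 1 in hypoxia, where 13.7%, 6.13% and 2.36% of all tested genes were. Without the 6 choroid-poor libraries, 11, 1 and 0 members were called, where 7.07%, 2.04% and 0.0445% of all tested genes were. The part of the other cell types in the members' differences was not tested.

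Hypoxia moved no member past the threshold in either genotype. In WT, 0 of 40 members were called by edgeR, where 0.0787% of all tested genes were. An unadjusted p below 0.05 was reached by 4 members (10%), against 11.6% of all tested genes. DESeq2 called 0 members and 0.852% of its genes. In P301S, 0 members were called, where 0.304% of all tested genes were. The unadjusted p was below 0.05 in 4 members (10%), against 13.4% of all tested genes. DESeq2 called 1 member (2.5%), Tfeb, and 2.47% of its genes. Averaged over the genotypes, 0 members were called, where 1.3% of all tested genes were. There 6 members (15%) had an unadjusted p below 0.05, against 15.7% of all tested genes. DESeq2 called 1 member, Atp6v1b2, and 4.06% of its genes. The medians of the members were 0 in WT, 0.018 in P301S and 0.002 over both. The 95% intervals over both genotypes lay within 0.3 of 0 on the log2 scale for 39 of the 40 members. Ctsz was the exception, with -0.30 to 0.05. Cell markers were read for hypoxia as well. Over both genotypes all tested choroid plexus (14), ependymal (9) and oligodendrocyte (8) markers were negative, with medians of -0.843, -0.461 and -0.137, and none was called. All 8 interneuron markers were positive (median 0.136), with Npy called (0.32, and 0.50 in P301S), and the other lists were mixed in sign. Fgfr3, an astrocyte marker, was called higher (0.19). The part of cell composition in the members' hypoxia differences was not tested.

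The member with the largest hypoxia difference within a genotype was Tfeb, the regulator of the lysosomal programme (ENSMUSG00000023990, chromosome 17, 47737030 to 47792419). It measured 7.64 to 10.9 CPM with a median of 9.63 in P301S hypoxia, against 11.0, 12.5, 12.7, 13.9 and 11.3 CPM in P301S normoxia. In WT it measured 9.94 to 13.6 CPM with a median of 11.1 in hypoxia, against 9.58 to 12.1 CPM with a median of 10.9 in normoxia. The P301S groups did not overlap and the WT groups did. The log2 fold change of hypoxia was -0.37 ± 0.10 in P301S (adjusted p = 0.0845) and 0.05 ± 0.09 in WT (adjusted p = 0.88). The difference between these was -0.42 ± 0.13, with a 95% interval of -0.69 to -0.15 and an adjusted p of 0.342, so it did not pass.

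No pump member passed under hypoxia in the edgeR fit of all 23 libraries. All 5 pump members had a positive fold change over both genotypes, with a median of 0.071. Atp6v1b2 measured 547 to 600.3 CPM with a median of 559 in P301S hypoxia, against 518, 524, 484, 486 and 553 CPM in P301S normoxia, and the log2 fold change over both genotypes was 0.13 ± 0.04 (adjusted p = 0.0949). In WT it measured 557 to 649.9 CPM with a median of 586 in hypoxia, against 502 to 617 CPM with a median of 556 in normoxia. The ranges overlapped in both genotypes, and the difference over both genotypes passed without WT normoxia replicate 4, at 0.14. Atp6v1a measured 582 to 644 CPM with a median of 627 in P301S hypoxia, against 526.1, 588, 539, 528 and 623 CPM in P301S normoxia, with a log2 fold change of 0.15 ± 0.06 (adjusted p = 0.233). In WT the Atp6v1a values were 539 to 631 CPM with a median of 567 in hypoxia, against 537 to 632 CPM with a median of 562 in normoxia, with 0.02 ± 0.05. Its ranges overlapped in both genotypes. Atp6v1h measured 116 to 126 CPM with a median of 125 in WT hypoxia, against 106 to 121 CPM with a median of 112 in WT normoxia, with 0.12 ± 0.06 (adjusted p = 0.396). In P301S it measured 104 to 138 CPM with a median of 116 in hypoxia, against 108, 118, 113, 109.8 and 127 CPM in normoxia, with 0.02 ± 0.06. These ranges overlapped as well.

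In WT the lysosomal acid lipase gene Lipa had the lowest p under hypoxia. It measured 21.3 to 28.4 CPM with a median of 25.1 in WT hypoxia, against 29.3 to 31.8 CPM with a median of 29.5 in WT normoxia, with a log2 fold change of -0.26 ± 0.07 (adjusted p = 0.154). In P301S it measured 25.3 to 33.5 CPM with a median of 29.3 in hypoxia, against 23.4, 27.0, 28.9, 31.4 and 28.1 CPM in normoxia, with 0.07 ± 0.08. The WT groups did not overlap and the P301S groups did. Hexa and the peptidase gene Tpp1 followed in WT, with -0.13 ± 0.05 (adjusted p = 0.262) and -0.14 ± 0.05 (adjusted p = 0.298). Tpp1 measured 85.1 to 101 CPM with a median of 88.9 in WT hypoxia, against 97.0 to 104 CPM with a median of 101 in WT normoxia. Its P301S values were 91.1 to 105 CPM with a median of 94.7 in hypoxia, against 94.1, 85.9, 102, 104 and 94.9 CPM in normoxia.

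Optn and Npc1 were the remaining members among the 4 lowest in p of a hypoxia comparison. Optn measured 20.9 to 24.4 CPM with a median of 23 in P301S hypoxia, against 23.5, 25.3, 26.3, 27.1 and 23.6 CPM in P301S normoxia, with -0.14 ± 0.06 (adjusted p = 0.342). Its WT values were 21.1 to 26.2 CPM with a median of 23.5 in hypoxia, against 20 to 23.8 CPM with a median of 22.9 in normoxia. Npc1 measured 62.0 to 68.2 CPM with a median of 65.7 in P301S hypoxia, against 67.1, 72.4, 67.1, 68.0 and 73.1 CPM in P301S normoxia. For WT the Npc1 values were 56.2 to 67.9 CPM with a median of 66.1 in hypoxia, against 59.1 to 76.1 CPM with a median of 68.9 in normoxia, and over both genotypes its log2 fold change was -0.09 ± 0.04 (adjusted p = 0.227). The hypoxia and normoxia ranges of both genes overlapped in each genotype, as did those of Tpp1.

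The interaction, which asks whether hypoxia acted differently in the 2 genotypes, called 0 members by edgeR, and 0% of all tested genes were called. At an unadjusted p below 0.05 there were 3 members (Tfeb, Lipa and Optn, 7.5%), against 9.28% of all tested genes. DESeq2 called 0 members and 0.247% of its genes. The Lipa difference was 0.32 ± 0.10, with a 95% interval of 0.11 to 0.54 (adjusted p = 0.363). For Optn it was -0.22 ± 0.09 (adjusted p = 0.45), and for Tpp1, which came next, 0.14 ± 0.08 (adjusted p = 0.582). For Gabarap it was 0.05 ± 0.07, with an interval of -0.09 to 0.19. The genotype fold change of Gabarap in hypoxia was thus not shown to differ from that in normoxia.

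Other genes of the same pathways were read by lists. Of 44 other lysosomal genes tested for P301S against WT over both conditions, 3 were lower (6.82%) and 1 was higher, a share called of 9.09%, against 7.61% lower and 12.8% called of all tested genes. The lower ones were Smpd1 (acid sphingomyelinase) at -0.23 ± 0.05, Fuca1 (a fucosidase) at -0.22 ± 0.07 and Gm2a (the GM2 activator that presents ganglioside to hexosaminidase A) at -0.16 ± 0.05, with adjusted p between 0.00322 and 0.044. The higher one was Slc17a5, the sialic acid exporter of lysosomes, at 0.15 ± 0.03 (adjusted p = 0.00372). The list's median was -0.025. With the length and GC trend removed, 6 of the 44 were lower (these 3, Laptm4a, Laptm4b and Lgmn) and none was higher, where 5.95% of all tested genes were called. Smpd1 and Slc17a5 were also called in normoxia, at -0.25 ± 0.07 and 0.16 ± 0.05, and no gene of this list was called for genotype in hypoxia or for hypoxia itself.

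Of 37 other autophagy genes, 6 were lower (16.2%) and 6 were higher, against 7.61% lower and 5.21% higher of all tested genes. The list's median was -0.009. The lower ones were Gabarapl2, Atg101, Atg4d, Wdr45b, Atg4b and Pink1, and the higher ones were Rb1cc1, Atg4a, Wdfy3, Atg2b, Stx17 and Uvrag. Atg101, a component of the ULK complex, had -0.26 ± 0.06 over both conditions (adjusted p = 0.00572) and -0.42 ± 0.08 in normoxia (adjusted p = 0.00626). Atg4d, a protease that processes Atg8 proteins, had -0.22 ± 0.06 (adjusted p = 0.0106), with 59.4% of its exon length shared with Kri1, and Wdr45b had -0.09 ± 0.03. The 6 lower genes span 6.63 to 39.1 kb and the 6 higher ones 61.6 to 256 kb. With the length and GC trend removed, Gabarapl2, Atg101, Atg4b and Wdr45b were lower and none of the list was higher, where 5.95% of all tested genes were called. Wipi1 was the only gene of the 4 pathway lists called for hypoxia over both genotypes, at -0.14 ± 0.04 (adjusted p = 0.049).

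Among 21 regulators of TFEB and mTORC1, the lysosomal growth kinase, 3 were lower in P301S (14.3%) and 1 was higher over both conditions, against 7.61% lower and 5.21% higher of all tested genes. The list's median was -0.012. The lower ones were subunits of the Ragulator scaffold that holds mTORC1 at the lysosome, Lamtor1 at -0.23 ± 0.06 (adjusted p = 0.00939), Lamtor4 at -0.19 ± 0.05 (adjusted p = 0.0133) and Lamtor5 at -0.10 ± 0.03 (adjusted p = 0.0312). The higher one was Prkaa2, a catalytic subunit of AMP-activated kinase, at 0.20 ± 0.05 (adjusted p = 0.0158). Of Lamtor1's exon length, 35.9% overlaps other genes. With the trend removed, Lamtor1 and Rheb were lower and none was higher, where 5.95% of all tested genes were called.

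The E-box stood in members that fell and in members that did not pass. Of the 12 members called lower, 10 had a window and 5 of these held CACGTG. Of the other 28, 24 had a window and 9 held it. The median log2 fold change of P301S against WT was -0.10 in the 14 members with CACGTG and -0.032 in the 20 tested members with a window that lacked it, and for hypoxia over both genotypes it was 0.02 and -0.02. Gabarap, Gabarapl1, Sqstm1, Hexa and Neu1 were lower with no CACGTG in the window read, which says nothing about sites outside it.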

How the data were processed

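Hippocampal RNA was sequenced as stranded libraries, per the labels' protocols, and the authors deposited 1 file of raw counts per library. Read pairs were counted per gene with featureCounts 1.6.2 on the Ensembl release 90 annotation, per the file headers. The counting spanned whole gene bodies with introns and set no strand option, and the names of the alignment files mark removed duplicates, per the file headers. Reads shared by overlapping genes are dropped by default, so a gene lying under another can have 0 counts. HISAT2, DESeq2 1.6.3 and the mm10 build are named in the submitters' processing notes. Symbols came from GENCODE M21 for 52403 of the 52636 genes.

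Replicates were numbered in accession order, which only names a library. Counts were scaled by TMM and fitted in edgeR 4.0.16 (R 4.3.3) as 4 group means over 23 libraries, after filterByExpr with a minimum count of 10. The robust quasi-likelihood test was two-sided for 7 contrasts, with Benjamini-Hochberg adjustment over 17788 genes and a threshold of 0.05. Averages over both conditions or genotypes are means of 2 contrasts. CPM per library carry no prior count, and levels between genes were divided by exon length that no other gene overlaps. Promoter windows and starts came from RefSeq (GRCm38.p6), and motifs were searched as exact letters.

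The alternatives were RLE scaling, the DESeq2 1.42.0 Wald test, no filter on low counts, a minimum count of 50 and a fit of the 2 compared groups only. Others were removal of the dependence of counts on gene length and GC content within a library (splines of 5 degrees of freedom on log2 CPM with a prior count of 2), a choroid plexus score as covariate, leaving out the 6 libraries lowest in that score, and leaving out each library in turn. The fitting steps were tested on simulated data. The members and gene lists were chosen with earlier results of these data known. Library values are given for every member called in at least 1 contrast and, where fewer than 4 were called, for the lowest in p up to 4. Of each pathway list, counts are given for the called genes and values for up to 4 of lowest p.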

Additional observations from a re-analysis of the deposited data

Results flagged for a closer look

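In 84 groups of library values of the named members, the gap between the outermost library and its neighbour was compared with the range of the group, and 4 groups held a library that stood apart by Dixon's 95% limit. Chance alone gives such a library in about 1 in 20 groups. Sqstm1 stood at 344.4 CPM in P301S normoxia replicate 1, above the other 4 libraries of that group. Gabarapl1 stood at 379.4 CPM in the same library, again above the other 4. Gabarapl1 stood at 361.6 CPM in WT normoxia replicate 1, below the other 5 libraries of its group. Atp6v1h stood at 116.5 CPM in WT hypoxia replicate 6, below the other 5.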

How the results depend on the processing

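No paired analysis was possible because the labels give no replicate numbers shared between groups. Under other settings the 13 members called for P301S against WT over both conditions became 9 to 15, and 10 to 15 with each library left out. The share of all tested genes called, 12.8% in the main fit, ran from 5.54% to 17.4% and from 8.53% to 16.0% in these fits. In normoxia the 3 members (5.93% of all tested genes called) became 7 with DESeq2 (10.2%) and 6 with a minimum count of 50 (8.07%). They became 1 with no filter (2.1%), with the 2 groups alone (2.13%), or without the 6 choroid-poor libraries (2.04%). In hypoxia the 1 member (1.93%) became 5 with DESeq2 (5.54%), 4 with a minimum count of 50 (3.18%), and 0 without the 6 choroid-poor libraries (0.0445%). The 0 members called for hypoxia in P301S, and over both genotypes, each became 1 with DESeq2. With each library left out, counts ran from 1 to 9 in normoxia, 1 to 4 in hypoxia, 0 to 1 for hypoxia over both genotypes, and 0 to 0 for hypoxia in WT, for hypoxia in P301S and for the interaction. The interaction and the averaged contrasts need all 4 groups, so the fit of 2 groups was not run for them. The cause of these shifts was not tested, beyond fewer libraries in the fits that leave some out.

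Of 275 values of single genes under the other settings, 243 kept their direction and side of the threshold, 22 lost their call, 10 gained one and none changed sign. Of 851 values with a library left out, 793 kept both, 39 lost and 19 gained a call, and none changed sign. All-gene counts moved too, from 2280 genes over both conditions to 1058 with the length trend removed and 1271 without the choroid-poor libraries. In normoxia 1054 genes became 1637 with DESeq2, 629 with no filter, 455 with the trend removed, and 367 with the 2 groups alone or without the choroid-poor libraries. In hypoxia 343 became 822, 182, 135, 152 and 8 under those settings. The 19.1 to 25.8 M counts per library leave Tfeb and Gla with the fewest counts of the tested members.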
